A study of Homo sapiens with 18 samples.

Results

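The transcription factors CDX1, CDX2, HNF4A, GATA4, GATA5, GATA6, FOXA1 and FOXA2 were followed at their promoters in 3 human cancer cell lines, HCT15 (colorectal carcinoma), DU145 and PC3 (both prostate cancer). These 8 genes were taken by name out of 20111 protein-coding genes. Their methylation was read from reduced representation bisulfite sequencing (RRBS), which cuts DNA at fixed sites and sequences the bisulfite-converted fragments, so that every CpG gets a number of methylated reads out of all its reads. A promoter window reached from 1 kb before to 1 kb after the 5' end of the gene in the GENCODE annotation of GRCh37, and a CpG was used when at least 10 reads covered it in each of the 3 lines. At least 5 such shared CpGs were present for 7 of the 8 members and for 12763 of all genes. GATA4 had 2.

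All 3 lines are established cultures grown in the growth medium of the supplier, without any treatment, and each was sequenced once by RRBS and once with each of 5 kits that capture methylated DNA with a methyl binding domain (MBD-seq). HCT15 and PC3 were bought from ATCC and collected at passage 3. For DU145 the sample labels also give ATCC, whereas the study's methods give another supplier and passage 9. HCT15 is thus 1 colon line, set against 2 prostate lines, and no line has a replicate library: differences between lines could not be tested against the spread between cultures, and an exact permutation test of 1 line against 2 could not go below p = 0.33. Fisher's exact test per CpG compares 2 libraries and covers counting error only. Neither the tissue labels nor expression of the members could be checked, since only DNA was measured.

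A lineage transcription factor binds the regulatory DNA of genes that give a cell type its identity, and its own promoter often lies in a CpG island, a stretch rich in CpG that is usually free of methylation. Methylation of such an island goes along with silencing in many tumors. CDX1 and CDX2 are the caudal homeobox factors of the intestinal epithelium, HNF4A is a nuclear receptor of liver, kidney and gut, and GATA4, GATA5 and GATA6 are zinc finger factors of heart and endoderm. FOXA1 and FOXA2 are forkhead pioneer factors, which open closed chromatin. FOXA1 works with the androgen receptor in the prostate, and FOXA2 acts in early endoderm.

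The RRBS libraries had 2195724 CpGs with a coverage of at least 10 for HCT15, 2398973 for DU145 and 2377143 for PC3, with a median coverage of 23, 33 and 26 reads at those CpGs. CpGs inside CCGG or TCGA, both 4-base restriction sites, read high nearly everywhere. Of the HCT15 CpGs in CCGG, 1.33% had a methylation of at most 5%, against 30.8% of the CpGs in other contexts. The same shares were 0.85% and 27.8% in DU145, and 1.42% and 32.1% in PC3. The median promoter window fell from 16.6% to 1.63% in HCT15, from 16.2% to 1.99% in DU145 and from 16.1% to 1.93% in PC3 once these CpGs were left out. The reason was not tested. Levels of the members are therefore given over all shared CpGs and then over those outside CCGG and TCGA.

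Sequences of the members whose lines differed by at least 25 percentage points are shown first, to let the CpG spacing be seen that the values rest on. They were read from GRCh37 and are printed along the strand of the gene, with the CpGs covered in all 3 lines in capitals. For CDX2, HNF4A, GATA5 and FOXA2 this is the exon-free stretch of at most 200 bases in the window with the most shared CpGs. For GATA6 an intronic stretch further inside the gene is added, which was chosen after its values were seen because it holds the largest gap between HCT15 and the prostate lines. No sequence is given for GATA4.
CDX2, intron, chr13:28542493-28542598, minus strand: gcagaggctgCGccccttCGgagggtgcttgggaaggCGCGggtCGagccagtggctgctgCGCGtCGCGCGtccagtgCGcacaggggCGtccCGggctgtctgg
HNF4A, intron, chr20:42984816-42984923, plus strand: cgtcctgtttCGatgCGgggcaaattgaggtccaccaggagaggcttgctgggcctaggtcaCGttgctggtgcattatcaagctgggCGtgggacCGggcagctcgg
GATA5, upstream, chr20:61051303-61051502, minus strand: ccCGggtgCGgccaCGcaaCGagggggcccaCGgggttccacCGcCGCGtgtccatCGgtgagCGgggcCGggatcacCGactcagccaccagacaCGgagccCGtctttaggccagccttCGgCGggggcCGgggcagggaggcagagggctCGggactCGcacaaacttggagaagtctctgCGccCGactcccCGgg
FOXA2, intron, chr20:22565441-22565640, minus strand: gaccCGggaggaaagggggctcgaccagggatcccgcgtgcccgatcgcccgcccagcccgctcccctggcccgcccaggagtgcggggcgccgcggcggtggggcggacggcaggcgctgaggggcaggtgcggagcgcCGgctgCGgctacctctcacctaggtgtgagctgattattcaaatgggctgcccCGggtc
GATA6, intron, chr18:19752241-19752425, plus strand: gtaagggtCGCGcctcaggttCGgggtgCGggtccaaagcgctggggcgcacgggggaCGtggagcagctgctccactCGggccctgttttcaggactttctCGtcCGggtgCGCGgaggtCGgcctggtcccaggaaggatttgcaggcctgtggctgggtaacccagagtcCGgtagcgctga
In the GATA5 stretch, the 22 CpGs averaged 91.2% in HCT15, 34.3% in DU145 and 23.2% in PC3. The FOXA2 stretch shows a limit of the method, as 4 of its 22 CpGs were shared, 3 of them in a restriction site.

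Among the 7 members measured, 2 were lower in HCT15 than in DU145 by at least 25 points (HNF4A and CDX2) and 2 were higher (GATA5 and FOXA2). Of all 12763 promoter windows 1.41% were lower and 12.2% higher by this measure. Against PC3, 1 member was lower (HNF4A) and 1 higher (GATA5), beside 1.6% and 12.5% of all windows. HNF4A was the member that was lower in HCT15 than in both prostate lines, as were 0.501% of all windows, and GATA5 the member that was higher than in both, as were 9.42%. The median difference over the members was -1.54 points against DU145 and -0.08 against PC3, near the medians of -0.14 and 0.01 over all windows.

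**Figure D1:**
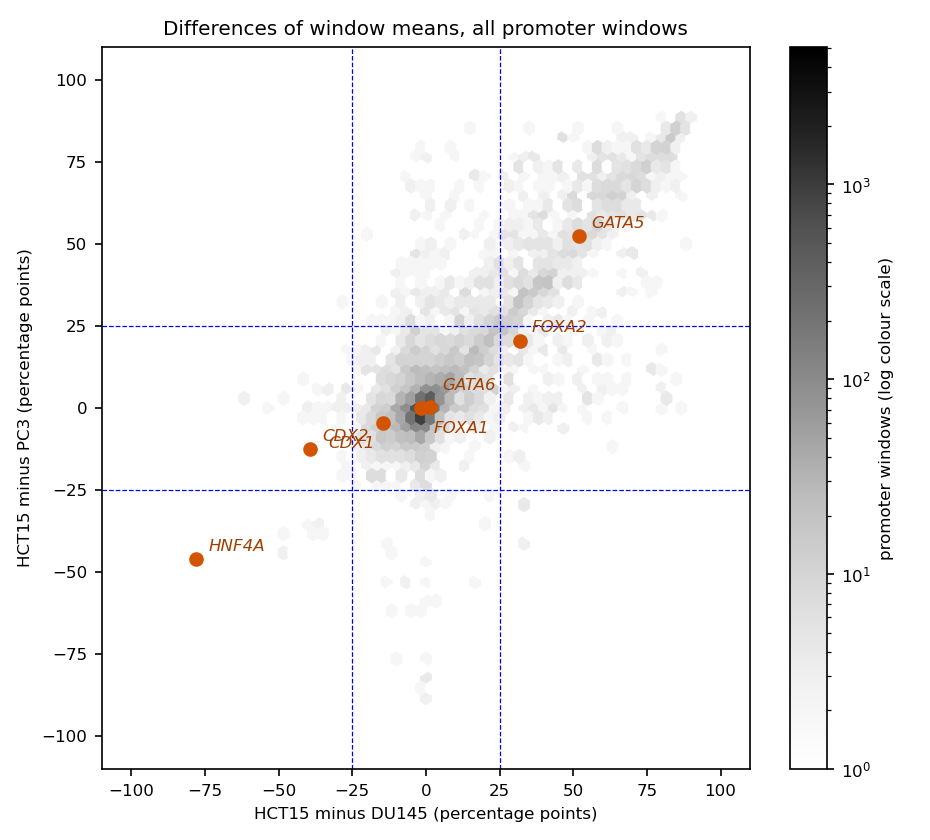
Difference of the window means between HCT15 and DU145 (horizontal axis) and between HCT15 and PC3 (vertical axis), both in percentage points, for all 12763 promoter windows (grey, darker for more windows, log colour scale) and the 7 measured members (orange). Dashed lines mark 25 points in either direction. HNF4A lies past both lines at the lower left, GATA5 past both at the upper right, and GATA6 and FOXA1 lie at the centre, where most windows are.

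HNF4A had the largest difference. Its gene 5' end at chr20:42984339 is that of the P2 promoter, the distal of its 2 promoters. Over 12 shared CpGs the methylation level was 17.7% ± 24.7 in HCT15 (SD over CpGs), 95.9% ± 7.95 in DU145 and 63.8% ± 37.8 in PC3. The difference of HCT15 minus DU145 was -78.2 points, and 6 of the 12763 windows had a lower one. Outside CCGG and TCGA, 8 CpGs averaged 1.31% ± 1.81 in HCT15, 94.5% ± 9.57 in DU145 and 49.1% ± 38.6 in PC3. HCT15 was lower at 12 of 12 CpGs tested against DU145 and at 9 of 13 against PC3 (Fisher's exact test, Benjamini-Hochberg adjusted p under 0.05 and at least 25 points), where 6.95% and 3.8% of all CpGs tested were lower.

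The 2 prostate lines had different patterns at the HNF4A window. DU145 was methylated at all of its 12 covered CpGs, with a lowest CpG of 71.4%. The window holds 61 CpGs, and none was covered from 1 kb to 500 bp before the 5' end. In PC3 the CpGs outside the restriction sites averaged 91.4% before the 5' end (2 CpGs). They averaged 48.6% in the first 500 bp after it (4 CpGs) and 7.72% in the next 500 bp (2 CpGs). The CpG 8 bp after the 5' end had 86.2% of 29 reads methylated in PC3, the CpG at 23 bp had 27.6% and the CpG at 55 bp had 13.8%, against 93.8%, 96.9% and 96.9% of 32 reads in DU145. In HCT15 the same CpGs had 0%, 0% and 3.57% of 28 reads. PC3 was not low throughout the rest of the window, as the CpG at 492 bp had 66.7% of 33 reads methylated and those at 539 and 565 bp 6.06% and 9.38%. In the printed intronic stretch, the 3 CpGs outside the restriction sites had 0% to 3.45% in HCT15, 71.4% to 100% in DU145 and 6.06% to 66.7% in PC3.

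The second 5' end of HNF4A, 45540 bp further at chr20:43029879, belongs to the P1 promoter and had 3 shared CpGs. They averaged 78.3% in HCT15, 88.9% in DU145 and 83.7% in PC3. Since 2 of the 3 lie in restriction sites, the level rests on 1 other CpG, which had 88.4%, 98.9% and 65.0%. The gene body beyond the first 1 kb, with 71 shared CpGs, had 77.1%, 81.7% and 71.6%, and its 34 CpGs outside the sites 68.1%, 74.1% and 59.2%.

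CDX2 was lower in HCT15 too, with a smaller gap to PC3. Its window around chr13:28543452 had 50 shared CpGs with 10.2% ± 21.4 in HCT15, 49.7% ± 29.8 in DU145 and 22.8% ± 21.6 in PC3. Outside the restriction sites, 40 CpGs averaged 0.49% ± 0.94, 44.3% ± 28.9 and 15.1% ± 13.5. On these CpGs HCT15 was close to unmethylated, PC3 was low and DU145 spread widely. PC3 was higher at CpGs that DU145 did not cover. Over all 61 CpGs covered in HCT15 and PC3, the means were 11.3% and 30.2%. In the first 500 bp after the 5' end PC3 had 41.2% over 23 CpGs, against 22.3% over the 14 shared ones. The difference was -39.4 points against DU145, with 31 of 50 CpGs lower, and -12.6 points against PC3, with 14 of 61 lower and 1 higher. Of all CpGs tested, 6.95% were lower against DU145, and 3.8% were lower and 11.3% higher against PC3. The coding exon CpGs of CDX2 averaged 8.81% for HCT15, 58.1% for DU145 and 22.7% for PC3, and those of the intron, from which the printed stretch comes, 10.9%, 28.2% and 25.7%. Farther into the gene, the 44 CpGs outside the restriction sites beyond 1 kb averaged 6.55%, 74.0% and 36.98%, so that the order of the lines was the same as in the window.

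CDX1, the paralogue of CDX2, was methylated in all 3 lines. Its 85 shared CpGs around chr5:149546341 averaged 82.9% ± 20.9 in HCT15, 97.6% ± 3.57 in DU145 and 87.4% ± 18.97 in PC3. The 70 CpGs outside the restriction sites averaged 81.4% ± 22.2, 97.6% ± 3.68 and 87.7% ± 19.5. The lowest CpG of DU145 was at 84.5%. HCT15 dipped around the 5' end itself: the 13 CpGs in the UTR averaged 60.5% there, against 98.3% in DU145 and 91.6% in PC3. At the CpG 4 bp before the 5' end, 30.3% of 33 reads were methylated in HCT15, 96.1% of 51 in DU145 (adjusted p = 2.03e-09) and 94.9% of 59 in PC3 (adjusted p = 1.57e-09, Fisher's exact test). PC3 had its own dip in the coding exon, with 12.1% of 66 reads at the CpG 265 bp after the 5' end, where HCT15 had 85.0% of 20 and DU145 84.5% of 58. Over the window, 23 of 85 CpGs were lower in HCT15 than in DU145, beside 6.95% of all CpGs tested. Against PC3, 18 were lower and 9 higher, beside 3.8% and 11.3%. The window means differed by less than 25 points.

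GATA5 ran the other way. Its window around chr20:61051051 is among the richest in CpG, with 220, more than 98.5% of all promoter windows. The 105 shared CpGs averaged 91.2% ± 11.1 in HCT15, 39.2% ± 27.9 in DU145 and 38.8% ± 32.4 in PC3. The mean of the 86 outside the restriction sites was 91.1% ± 11.4, 33.6% ± 26.7 and 32.6% ± 31.3. Of the CpGs covered in each line, 95 of 107 had at least 80% in HCT15, 9 of 108 in DU145 and 15 of 140 in PC3. HCT15 was higher at 83 of 105 CpGs against DU145, beside 7.18% of all CpGs tested, and at 82 of 107 against PC3, beside 11.3%. It was lower at 0 in either comparison. The prostate lines had nearly equal means, yet 17 of 108 CpGs were higher in DU145 and 16 lower, beside 12.1% and 3.38% of all CpGs tested, so their patterns within the window were not the same.

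The GATA5 difference was large on both sides of the 5' end. Outside the restriction sites, the 500 bp before it had 92.4% for HCT15, 29.3% for DU145 and 14.0% for PC3, and the 500 bp after it 89.1%, 16.0% and 27.7%. From 1.5 to 2 kb after the 5' end all 3 lines were high, with 90.3%, 92.7% and 84.0%, and in the gene body beyond 1 kb the means were 82.7%, 80.7% and 74.4%. Farther upstream a gap was seen between 2.5 and 2 kb before the 5' end, with 67.1%, 18.98% and 22.2% over 10 CpGs. It was not seen in the neighbouring bins. From 3 to 2.5 kb before the 5' end 3 CpGs averaged 94.2%, 96.4% and 86.3%. From 2 to 1.5 kb 1 CpG had 9.09%, 7.41% and 0.0%. The 15 CpGs from 1 to 5 kb, which include all of these, averaged 68.3%, 35.8% and 36.6%.

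**Figure D2:**
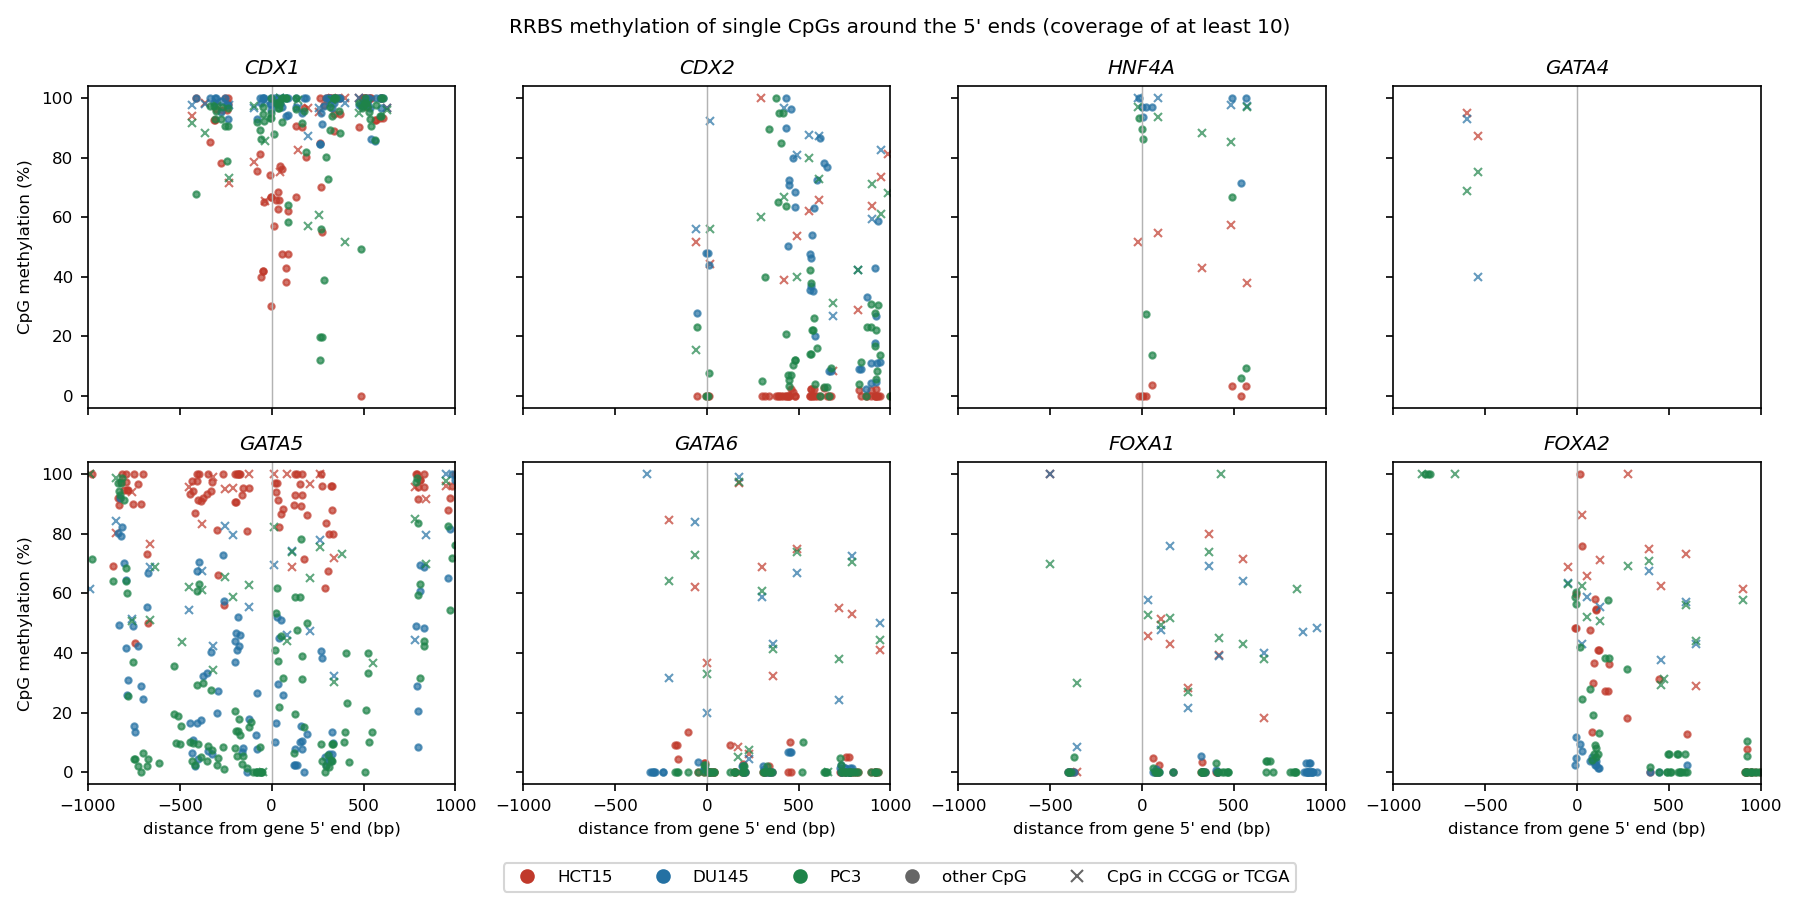
Methylation (%) of each CpG covered by at least 10 reads in a line, against its distance from the gene 5' end in bp, for the 8 members in HCT15 (red), DU145 (blue) and PC3 (green). Crosses are CpGs in CCGG or TCGA and circles all others. In GATA6 and FOXA1 the circles lie near 0 in all lines while the crosses scatter upward, in HNF4A and CDX2 only the HCT15 circles stay near 0, and in GATA5 the HCT15 circles lie near the top.

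GATA6 was unmethylated at its gene 5' end in all 3 lines. The 39 shared CpGs around chr18:19749550 averaged 16.2% ± 28.3 for HCT15, 14.8% ± 27.1 for DU145 and 16.0% ± 27.8 for PC3, and the 28 outside the restriction sites 0.76% ± 1.57, 0.82% ± 0.98 and 0.66% ± 1.25. By the Fisher test and at least 25 points, 1 of 42 CpGs was higher in HCT15 than in DU145, beside 7.18% of all CpGs tested. By the same measure, 0 of 64 differed between HCT15 and PC3, and 0 of 39 between DU145 and PC3. Smaller differences were not counted.

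The lines parted further inside GATA6. A second annotated 5' end lies 1344 bp downstream, so that its window overlaps the first. Its 89 shared CpGs averaged 11.0% ± 22.3 for HCT15, 40.6% ± 33.8 for DU145 and 57.3% ± 44.7 for PC3, and the 70 outside the restriction sites 0.43% ± 1.15, 34.7% ± 34.0 and 53.8% ± 47.8. HCT15 was lower at 42 of 92 CpGs against DU145 and at 49 of 102 against PC3, and higher at 0 in both. Of all CpGs tested, 6.95% and 3.8% were lower. Distances are counted here from the gene 5' end. From 1 to 1.5 kb all lines were low, with 0.0%, 2.33% and 0.91% outside the restriction sites. From 1.5 to 2 kb HCT15 had 0.52%, DU145 40.6% and PC3 65.0%, and from 2 to 2.5 kb 0.26%, 64.2% and 98.4%. From 2.5 to 3 kb DU145 had reached 98.4% and PC3 98.5%, whereas HCT15 stayed at 0.57%. In the printed intronic stretch from 2691 to 2875 bp, 12 shared CpGs averaged 9.42% in HCT15, 98.2% in DU145 and 98.4% in PC3.

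In the 3 kb upstream of GATA6, shared CpGs lay only in the last 500 bp and between 2.5 and 2 kb. A gap of this kind was found in the latter bin, and the bins without shared CpGs could not be judged. Between 2.5 and 2 kb before the 5' end, 12 CpGs outside the restriction sites averaged 1.76% in HCT15, 63.1% in DU145 and 79.0% in PC3. Over the whole 1 to 5 kb upstream, 50 such CpGs averaged 65.1% ± 42.5, 78.6% ± 21.6 and 81.1% ± 22.9, so that HCT15 was largely methylated there too. In PC3 the downstream border was sharp: the CpG at chr18:19751230 in the coding exon had 12.1% of 33 reads methylated, and the CpG at chr18:19751335 had all of 35. In DU145 the same CpGs had 9.09% of 22 and 69.0% of 58 reads, and CpGs after it varied, such as 89.5% at chr18:19751359 and 10.3% at chr18:19751404. HCT15 had 0%, 2.86%, 0% and 0% at these 4 positions. Over the gene body beyond 1 kb, 118 CpGs outside the restriction sites averaged 9.09% ± 27.3 in HCT15, 56.1% ± 34.1 in DU145 and 82.5% ± 35.0 in PC3.

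**Figure D3:**
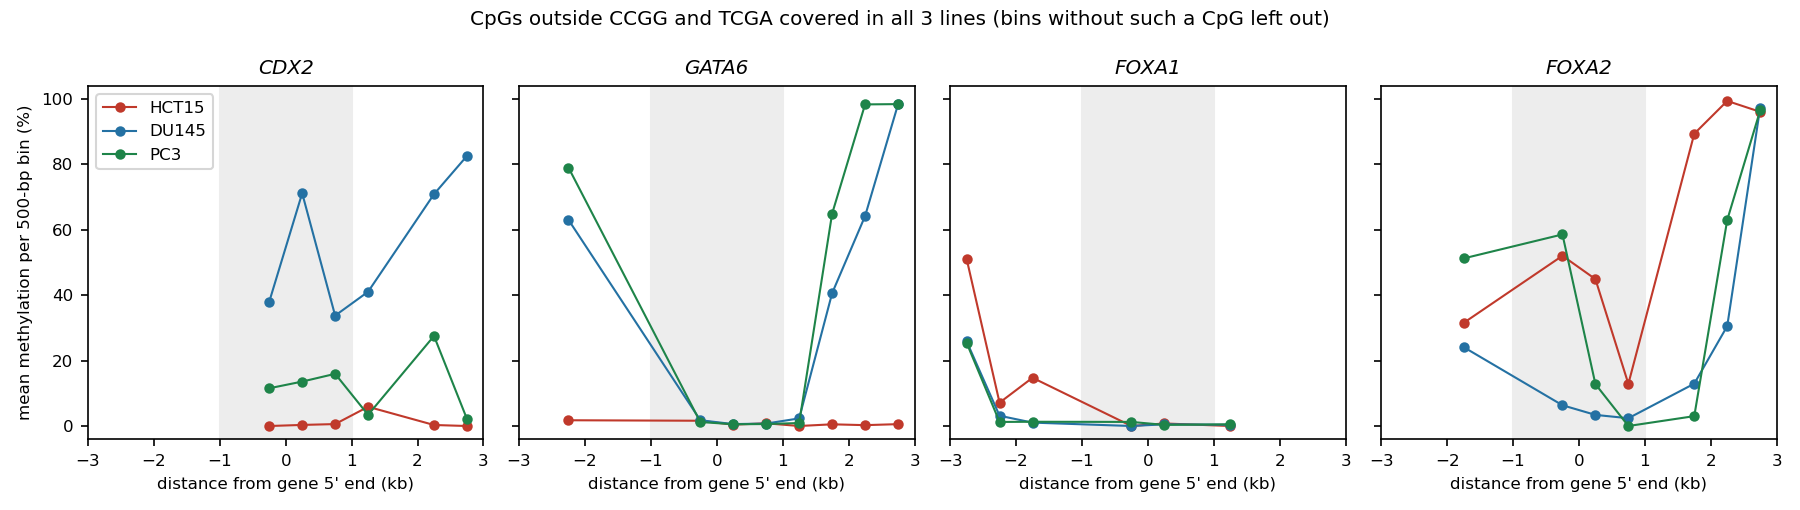
Mean methylation (%) per 500 bp against the distance from the gene 5' end in kb, for CDX2, GATA6, FOXA1 and FOXA2, over CpGs outside CCGG and TCGA that were covered in all 3 lines (HCT15 red, DU145 blue, PC3 green). The grey band marks the promoter window and lines join neighbouring bins that hold a CpG. In GATA6 all lines are near 0 inside the band, and DU145 and PC3 reach 98.4% and 98.5% at the right edge while HCT15 stays at 0.57%.

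GATA4 could not be judged at its gene 5' end at chr8:11534468, where the 2 shared CpGs both lie in restriction sites and had means of 91.0% in HCT15, 66.4% in DU145 and 71.9% in PC3. Its further 5' ends were better covered. The end 15667 bp downstream had 22 shared CpGs with 64.1% ± 24.2, 47.3% ± 26.7 and 40.6% ± 38.8, and outside the restriction sites 60.5%, 37.6% and 32.6%. At the end 27192 bp downstream, 9 shared CpGs averaged 91.6% ± 9.57 in HCT15, 23.8% ± 24.1 in DU145 and 72.1% ± 25.8 in PC3. There DU145 stood apart from HCT15 and PC3. HCT15 was higher than DU145 at 19 of 24 CpGs, beside 7.18% of all CpGs tested. It was higher than PC3 at 2 of 9, beside 11.3%. The gap between both prostate lines was -48.3 points, larger than that of HCT15 to PC3, 19.5.

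FOXA1 was unmethylated at its 5' end in every line. The 28 shared CpGs around chr14:38065264 averaged 17.4% ± 28.7 for HCT15, 18.96% ± 29.8 for DU145 and 17.5% ± 24.8 for PC3, and the 18 outside the restriction sites 0.60% ± 1.45, 0.40% ± 1.28 and 0.54% ± 1.38. At 0 of 28 CpGs did HCT15 differ from either prostate line by the Fisher test and at least 25 points. The differences of the means were -1.54 and -0.08 points. In the gene body beyond 1 kb, where 21 CpGs lie outside the restriction sites, DU145 had 20.4% ± 16.0 against 0.61% ± 1.67 in HCT15 and 0.63% ± 1.45 in PC3. From 1 to 5 kb upstream HCT15 was the higher line, with 42.5% ± 37.8 over 27 such CpGs against 8.35% ± 10.2 in DU145 and 7.07% ± 10.7 in PC3.

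FOXA2 was partly methylated in HCT15. The 25 shared CpGs around chr20:22566093 averaged 51.4% ± 23.9 for HCT15, 19.6% ± 24.3 for DU145 and 30.8% ± 24.7 for PC3, and the 17 outside the restriction sites 44.3% ± 23.9, 3.86% ± 3.17 and 20.2% ± 21.5. HCT15 was higher at 15 of 25 CpGs against DU145 and at 9 of 40 against PC3, where 7.18% and 11.3% of all CpGs tested were higher. The difference was 31.8 points against DU145 and 20.6 against PC3. PC3 was not low throughout: before the 5' end 3 CpGs outside the restriction sites averaged 52.1% for HCT15, 6.35% for DU145 and 58.6% for PC3, and in the first 500 bp after it 13 averaged 44.9%, 3.4% and 12.8%. At the CpG 18 bp after the 5' end all 29 reads were methylated in HCT15, 9.52% of 42 in DU145 and 42.0% of 69 in PC3. From 1.5 to 2 kb inside the gene HCT15 had 89.4%, DU145 12.9% and PC3 3.02%, and from 2.5 to 3 kb all lines were above 96%, with 96.1%, 97.4% and 96.5%.

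**Figure D4:**
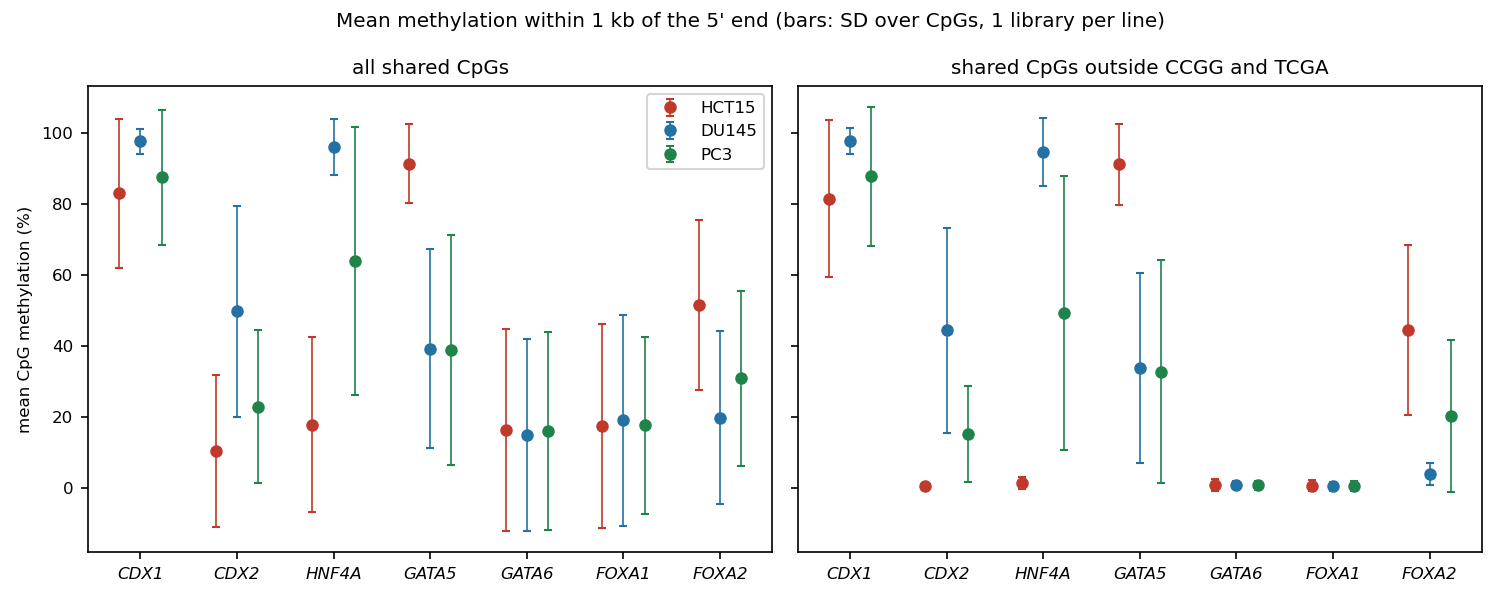
Mean methylation (%) within 1 kb of the gene 5' end for the 7 measured members in HCT15 (red), DU145 (blue) and PC3 (green), over all shared CpGs (left) and those outside CCGG and TCGA (right). Bars are the SD over CpGs, not over cultures, since each line has 1 library. On the right, GATA6 and FOXA1 lie below 1% in every line, HNF4A is at 1.31% in HCT15 and 94.5% in DU145, and GATA5 is at 91.1% in HCT15.

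By level over all shared CpGs, the members of HCT15 were ordered GATA5, CDX1, FOXA2, HNF4A, FOXA1, GATA6 and CDX2. The last 4 lay between 10.2% and 17.7% with SDs above 20 and were not separated by their spread. Outside CCGG and TCGA these 4 had 1.31%, 0.60%, 0.76% and 0.49%, with SDs from 0.94 to 1.81. In DU145 CDX1 and HNF4A led with 97.6% and 95.9%, and in PC3 CDX1 and HNF4A with 87.4% and 63.8%. The windows had between 45 (GATA4) and 220 CpGs (GATA5), where the median of all windows was 90, and those of HNF4A and GATA4 had fewer than the median.

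Capture with the MBD kits was read over the same windows. The libraries held from 10040 fragments (DU145, MethylMagnet) to 7344098 (HCT15, MethylMiner). With MethylMagnet, MethylCollector, MethylCollector Ultra and MethylCap, each library had its highest density at the CpGs methylated in its own line alone, in 12 of 12 libraries. The 3 MethylMiner libraries had densities from 2.12 to 4.25 times their mean over all 3 sets of CpGs, and were kept apart. Fragments of the other 4 kits were added up per line and set against the number that an even spread over the genome would give, 3.74 for HCT15, 0.68 for DU145 and 1.42 for PC3 per window. The intervals are exact Poisson intervals at the 95% level, for counting error only. The kits share 1 DNA per line and are no replicates, and MethylCap gave the largest library of the 4 in each line. Of the even spread, MethylCap made up 2.99 of 3.74 fragments in HCT15, 0.627 of 0.68 in DU145 and 0.729 of 1.42 in PC3. The sums thus mix the kits in different shares and are not directly comparable between lines.

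GATA6 gave the clearest contrast. At its gene 5' end 0 fragments were found in all 12 libraries, with upper limits of 0.986 times the even spread in HCT15, 5.42 times in DU145 and 2.6 times in PC3. At its second 5' end HCT15 again had 0 fragments, whereas DU145 had 13, or 19.1 times the even spread (interval 10.2 to 32.7), and PC3 had 41, or 28.9 times (20.7 to 39.2). Fragments were found there in every one of the prostate libraries of the 4 kits, from 1 to 6 in DU145 and from 2 to 17 in PC3. HCT15 was below both prostate lines in 4 of 4 kits, as were 0.0548% of all gene 5' end windows, a set without this further end. HCT15 had the most fragments over the 4 kits together, but fewer than PC3 with MethylMagnet (59972 against 242074). An even spread gives 0.0454 HCT15 fragments with MethylMagnet, 0.202 with MethylCollector and 0.499 with MethylCollector Ultra, so that 0 fragments say little in these kits. Within 500 bp of that end HCT15 was below both in 1 of 4 kits, since DU145 had no depth there in 3 kits.

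At GATA5, HCT15 had 133 fragments (35.6 times, 29.8 to 42.1), PC3 47 (33.1 times, 24.3 to 44) and DU145 10 (14.7 times, 7.05 to 27.0). HCT15 was above both prostate lines in 3 of 4 kits, as were 14.8% of all windows. In those 3 kits DU145 had 0 fragments, where an even spread gives 0.00757 to 0.023, so that its side of the count says little. With MethylCap HCT15 was lowest, at 14.5 times the mean depth of the library against 17.8 in DU145 and 18.8 in PC3, from 45, 10 and 13 fragments. This order turned with the window and the scaling: within 500 bp the MethylCap densities were 18.8, 5.59 and 12.4 in HCT15, DU145 and PC3, and divided by the MethylMiner depth of the 2 Mb around the gene they were 6.12, 5.89 and 5.43. HCT15 was then above both in 4 of 4 kits. The sum over kits did not separate HCT15 from PC3, but the kits have different shares in the sums of these lines. With MethylMagnet the density was 301 in HCT15 against 83.8 in PC3. It was 186 against 88.9 with MethylCollector and 74.7 against 33.0 with MethylCollector Ultra. The RRBS means of HCT15 and PC3 were 91.2% and 38.8%.

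At CDX2, HCT15 was below both prostate lines in 3 of 4 kits, as were 0.384% of all windows. This rested on 1 HCT15 fragment in each kit, against 1 to 3 in DU145 and 1 to 8 in PC3. With MethylMagnet HCT15 was above both, also on 1 fragment. Within 500 bp of the 5' end HCT15 was below both in 2 of 4 kits. HCT15 had 4 fragments (1.07 times, 0.291 to 2.74), DU145 6 (8.83 times, 3.24 to 19.2) and PC3 14 (9.87 times, 5.39 to 16.5). At HNF4A the counts were 6 (1.61 times, 0.589 to 3.49), 4 (5.88 times, 1.6 to 15.1) and 8 (5.64 times, 2.43 to 11.1), with intervals that overlapped, and HCT15 was lowest in 1 of 4 kits. CDX1 had 50 fragments in HCT15 (13.4 times, 9.92 to 17.6) and 11 in DU145 (16.2 times, 8.08 to 28.9). PC3 had 42 (29.6 times, 21.3 to 40), so that all lines were above the even spread. The sum put PC3 above HCT15, but 25 of the PC3 fragments came from MethylMagnet. By density PC3 was above HCT15 with MethylMagnet (173 against 125). It was below HCT15 with MethylCollector (32.8 against 33.8), MethylCollector Ultra (28.6 against 45.7) and MethylCap (6.02 against 6.71).

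At FOXA1, 1 fragment was found in all 12 libraries together, in HCT15. At FOXA2 HCT15 had 19, DU145 2 and PC3 10 fragments, or 5.09 times (3.06 to 7.93), 2.94 times (0.356 to 10.6) and 7.05 times (3.38 to 13) the even spread, with overlapping intervals. HCT15 was above both in 1 of 4 kits there and in 3 of 4 around the 5' end of the MANE transcript, 883 bp downstream. At least 3 of 4 was reached by 14.8% of all gene 5' end windows. With MethylCollector the MANE order rested on 1 HCT15 fragment, and at 2 kb either side the count was 1 of 4. The intervals of the sums overlapped there too, with 2.85 to 7.61 in HCT15, 0 to 5.42 in DU145 and 0.436 to 6.17 in PC3. At the GATA4 5' end 27192 bp downstream, HCT15 had 54 fragments (14.5 times, 10.8 to 18.8), DU145 1 and PC3 6 (4.23 times, 1.55 to 9.2). With MethylMagnet, MethylCollector and MethylCollector Ultra DU145 had 0 fragments, where an even spread gives 0.00757 to 0.023, so that these zeros say little. HCT15 was above both in 4 of 4 kits, as were 4.93% of all gene 5' end windows, a set without this further end. This count fell to 2 of 4 when each density was divided by the MethylMiner depth of the 2 Mb around the gene, which was 0.389 times the library mean in PC3, 1.24 times in HCT15 and 1.15 times in DU145. Over the 21 pairs of a measured member and a line, the rank correlation of MBD density with the RRBS level outside the restriction sites was highest with MethylCap (0.78) and lowest with MethylMiner (0.31), with MethylMagnet at 0.6, MethylCollector at 0.5 and its Ultra version at 0.45. These pairs share libraries, and low counts give many ties.

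**Figure D5:**
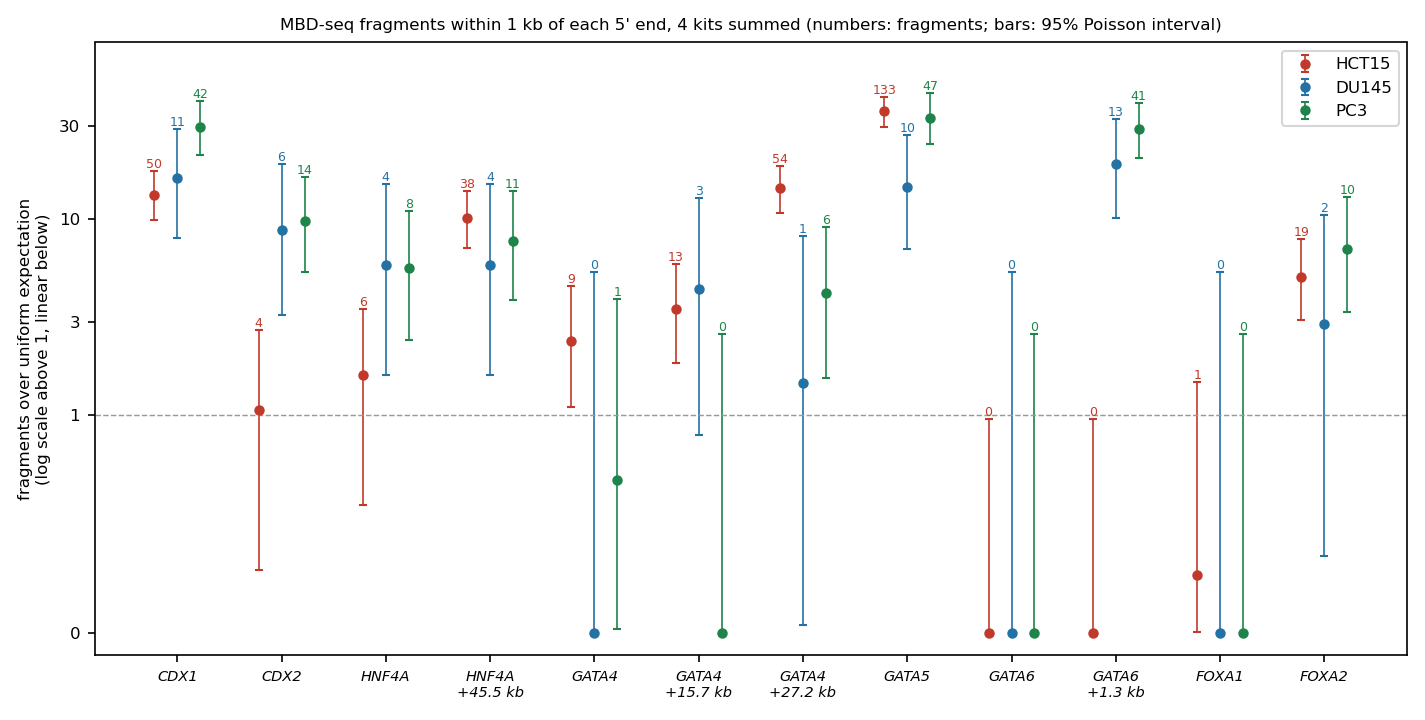
Fragments within 1 kb of each 5' end, added over MethylMagnet, MethylCollector, MethylCollector Ultra and MethylCap, as a multiple of an even spread over the genome (vertical axis, log scale above 1 and linear below), for HCT15 (red), DU145 (blue) and PC3 (green). Numbers are fragments, bars are exact Poisson intervals at the 95% level, and labels with a distance are further 5' ends. The kits make up different shares of the even spread in each line. At the second GATA6 end HCT15 has 0 fragments, DU145 13 and PC3 41.

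Of 64 companion genes of the same families and lineages, 28 had at least 5 shared CpGs. Of these 28, 3 were higher in HCT15 than in DU145 by at least 25 points and 2 lower, beside 12.2% and 1.41% of all windows, and 5 were higher than in PC3 and 2 lower, beside 12.5% and 1.6%. Among 3 measured paralogues, HNF4G was lower in HCT15 than in DU145, with 6.81% against 32.7% (PC3 15.3%), and GATA2 was higher than in PC3, with 97.2% against 19.4% (DU145 79.5%). HHEX, an early endoderm homeobox factor, had 53.5% in HCT15, 11.3% in DU145 and 11.6% in PC3. PROX1 had 41.5%, 37.1% and 70.0% in the same order, and ERG 46.8%, 37.3% and 85.0%. SPDEF had 88.4%, 87.3% and 26.6% over 5 shared CpGs. FOLH1, the prostate-specific membrane antigen, had 83.3%, 95.3% and 53.7% over 6, so that PC3 stood apart in these 4. All companion levels include the CpGs in CCGG and TCGA. HOXB13, the homeobox factor of the prostate, had 17.1% in HCT15, 91.9% in DU145 and 13.5% in PC3, so that the prostate lines differed more from each other than HCT15 from PC3. Among the 34 other measured members and companions, HOXB13 and CDX2 had the 3 line means nearest to those of HNF4A, at distances of 50.5 and 62.2 points, and SOX2 and SOX17 those nearest to GATA5, at 28.1 and 36.4 points. Of the 18 gut target genes listed, 3 were measured, and of the 14 prostate target genes 4, which leaves most targets of the members undescribed by these CpGs.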

How the data were processed

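RRBS and MBD-seq of HCT15, DU145 and PC3 were analysed from 3 RRBS and 15 MBD-seq libraries, grouped by line, assay and kit as labelled. The RRBS files, as deposited, give 2 counts for each CpG, its methylated reads and its total reads, and the lowest total is 6. For MBD-seq the deposited signal is unscaled coverage of uniquely mapped fragments after removal of duplicates, mapped with Bowtie to hg19 per the labels. The PC3 RRBS file holds no CpG of chromosome 22, where no member lies.

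Methylation was averaged over CpGs within 1 kb of gene 5' ends (GENCODE 44 on GRCh37, minimum coverage 10, at least 5 CpGs shared by all lines). A difference was called from 25 points. Single CpGs were compared by two-sided Fisher's exact test with Benjamini-Hochberg adjustment over all CpGs covered in both libraries. MBD density is the mean depth of a window over the mean depth of the library. Fragments were counted from rises in depth, which misses a fragment that starts where another ends.

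The correlation, the sums over kits and the added GATA6 stretch were chosen after their values were seen. All 8 members are named, and further 5' ends start over 1 kb from the first. Companion genes are named when past 25 points or nearest by the Euclidean distance over the line means. The printed stretch is the exon-free one of at most 200 bases with the most shared CpGs. The members and lists were chosen with earlier results of these data known. The scripts were tested on simulated data. Python 3.11.15, scipy 1.17.1, numba 0.67.0 and matplotlib 3.10.9 were used. Alternatives were other coverages, windows, CpG sets, 5' ends and MBD scalings.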

Additional observations from a re-analysis of the deposited data

How the results depend on the processing

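Of 86 alternatives of counts, 76 stayed within 1.5 times. Counts below are not scaled to the number tested, which differs between settings. Over the kb upstream alone, 8263 windows could be measured instead of 12763. Windows higher in HCT15 were then 891 instead of 1553 against DU145, 923 instead of 1601 against PC3 and 676 instead of 1202 against both. Windows lower than in both were 42 of 11373 with at least 10 shared CpGs, instead of 64 of 12763. They were 180 with PC3 left out and 204 with DU145 left out. With a coverage of at least 20, 1051601 CpGs were tested between HCT15 and PC3 instead of 1789012. Those higher in HCT15 were 133431 instead of 201833, and those lower 44232 instead of 68037. Without the Fisher test the latter were 104777. The number of members with HCT15 lowest in at least 3 kits fell from 1 to 0 at 500 bp either side. No called difference of a member changed sign. HNF4A stayed past 25 points in both comparisons, with -93.2 to -76.2 against DU145 and -53.5 to -45.3 against PC3, and so did GATA5, with 40.2 to 61.4 and 41.5 to 63.6. CDX2 against DU145 ranged from -58.4 to -38.3, and against PC3 from -18.9 to -9.32. FOXA2 against DU145 ranged from 19.4 (each line's own CpGs) to 40.5 and against PC3 from 13.0 to 31.9 (transcript 5' end), so its calls turn on the CpGs compared. GATA6 reached -14.1 against DU145 and -23.7 against PC3 at 2 kb either side. Leaving out CpGs in CCGG or TCGA was chosen after seeing the data. No paired analysis was possible because each line has 1 library per assay and kit, and within a kit the lines were compared by direction alone. At a coverage of 10 small differences were not detectable at single CpGs, and MBD windows with few fragments set wide limits.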

Other observations

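The depth of the MethylMiner libraries, which did not separate CpGs by line, differed between lines in the 2 Mb around some members. Around GATA4 the depth was 1.25 times the library mean in HCT15, 1.16 times in DU145 and 0.394 times in PC3. Around CDX1 it was 1.74, 1.69 and 2.52 times, and around GATA5 2.37, 3.02 and 3.45 times. With each density divided by this depth, HCT15 was above both prostate lines at GATA5 in 4 of 4 kits instead of 3, at the GATA4 end 27192 bp downstream in 2 instead of 4, and below both at CDX1 in 0 instead of 1.

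In the MethylCap libraries the region from 1 to 5 kb upstream of FOXA1 held 24 fragments for HCT15, 1 for DU145 and 2 for PC3, with densities of 4.01, 0.761 and 1.59 times the library mean. In the FOXA1 gene body beyond 1 kb, DU145 had 3 MethylCap fragments and HCT15 and PC3 had 0. The CDX2 gene body beyond 1 kb held 3 MethylCap fragments for HCT15, 8 for DU145 and 4 for PC3, with densities of 0.303, 3.43 and 1.40.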
